A study of Mus musculus with 47 samples.

Results

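Glucocorticoid signalling in the hypothalamus was followed through 8 genes, which act in 3 roles. Hsd11b1 encodes the enzyme that regenerates active corticosterone inside cells, Nr3c1 and Nr3c2 encode the glucocorticoid and mineralocorticoid receptors, and Fkbp5, Sgk1, Tsc22d3, Zbtb16 and Sult1a1 are genes known to be induced by glucocorticoids. They were looked up by symbol among the 14221 genes of the bulk RNA-seq count table, and all 8 were found. Hsd11b1 was picked for its fall on Day 5, so its Day 5 values are given as a description with no test. The other genes were chosen by their role in the pathway, with earlier results of these data known.

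All samples were hypothalami of male Lep ob/ob mice, an obese strain that lacks leptin, and each library came from 1 mouse, with an age of 11 weeks given by the labels for every mouse. FGF1, at 3 µg, or vehicle was given once into a cerebral ventricle (icv), and mice were euthanized on Day 1 (10 FGF1, 4 vehicle), Day 5 (9 FGF1, 14 vehicle) or Day 42 (5 FGF1, 5 vehicle). Every vehicle group is labelled as pair fed to the FGF1-treated mice. On Days 1 and 42 the vehicle-treated mice are labelled non-diabetic. On Day 5 there are 7 labelled non-diabetic and 7 labelled diabetic, and FGF1-treated mice were compared with each group in turn, so that these 2 comparisons share the FGF1-treated mice. The labels give no diabetic state for FGF1-treated mice, while the paper describes the injected mice as diabetic. If that state differed between the groups of Days 1 and 42, it cannot be told apart from treatment. Tissue was a punch of the hypothalamus, and separate mice were used on each day, so no mouse was followed over time. Each day has its own preparation code, a difference that cannot be told apart from time after injection, and levels are therefore compared within days. The step of preparation that the code stands for is not given in the sources used here.

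Levels are given as CPM, counts scaled to a common library size, after TMM scaling for library composition. Effects are log2 fold changes (log2 FC) of FGF1 over vehicle from 1 edgeR quasi-likelihood fit of all 47 libraries. A gene was called a DEG at a Benjamini-Hochberg adjusted p under 0.05 over all genes together with an absolute log2 FC above 0.5, and the words rose and fell are kept for genes that passed both. Total counts ran from 1.24 M in FGF1 replicate 17 of Day 1 to 47.1 M, and 7 of the FGF1 libraries of Day 5 had under 10 M while 2 had 27922117 and 30009258. Library replicate 17 gives the rarest of these genes very few counts, with 14 counts of Hsd11b1 and 16 of Sult1a1, and its values stood inside the range of the other FGF1-treated mice except at the upper edge for Hsd11b1. All 14 markers of hypothalamic neurons, such as Agrp, Hcrt and Pmch, were detected in every library.

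Glucocorticoids reach the brain from the adrenal gland, and cells set their own exposure in part by enzymes. Hsd11b1 (11β-hydroxysteroid dehydrogenase type 1) turns the inactive 11-keto form back into corticosterone, using NADPH that hexose-6-phosphate dehydrogenase (H6pd) makes in the endoplasmic reticulum. The mineralocorticoid receptor binds corticosterone tightly and the glucocorticoid receptor binds it more loosely, so that the latter responds mostly when the hormone is high. The activated receptor binds DNA at pairs of inverted half-sites and induces genes such as Fkbp5, whose product lowers the receptor's affinity for hormone and so closes a feedback loop.

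Per kilobase of merged exons, the scale on which levels of different genes can be set side by side, Tsc22d3 was the most abundant of the 8 genes in vehicle-treated mice of Day 1, with 38.4 ± 6.42 CPM per kb (SD, n = 4). Sult1a1 (30.3 ± 5.52) and Sgk1 (26.9 ± 9.69) followed. Nr3c1 had 11.1 ± 1.31 CPM per kb, more than Fkbp5 (8.39 ± 0.680), Zbtb16 (7.10 ± 1.34) and Nr3c2 (5.02 ± 0.982). Hsd11b1 was the least abundant, with 3.84 ± 0.489 CPM per kb. Between neighbours in this order, only Sgk1 and Nr3c1, and Nr3c1 and Fkbp5, differed by more than their SDs together. On Day 5 the highest in non-diabetic vehicle-treated mice (SD, n = 7) were Tsc22d3 (49.0 ± 5.89) and Sgk1 (42.7 ± 10.4), Sult1a1 had 12.4 ± 3.49 CPM per kb, and Hsd11b1 was the lowest with 3.01 ± 0.730.

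Hsd11b1 lies on chromosome 1 of GRCm38 (193221634 to 193264075, minus strand) and none of its annotated exons overlaps another gene. On Day 1 the 10 FGF1-treated mice had between 8.54 and 11.4 CPM (median 9.65), and the vehicle-treated mice had 13.5, 18.2, 16.2 and 17.4 CPM. Every FGF1-treated mouse was below every vehicle-treated mouse. Hsd11b1 fell by 0.74 on the log2 scale (SE 0.14, edgeR adjusted p = 2e-05), from 16.3 ± 2.08 (SD, n = 4) to 9.86 ± 0.944 CPM (SD, n = 10). The exact permutation test of the same mice gave p = 0.000999, two-sided, the smallest it can give.

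On Day 5, the day for which the gene was selected, Hsd11b1 ran from 4.52 to 7.59 CPM in the 9 FGF1-treated mice (median 5.64), from 10.6 to 19.1 CPM in non-diabetic vehicle-treated mice (median 11.3) and from 9.34 to 17.5 CPM in diabetic vehicle-treated mice (median 13.4). The highest FGF1-treated mouse was below the lowest mouse of either vehicle group. The log2 FC was -1.14 (SE 0.14) against the non-diabetic and -1.21 (SE 0.14) against the diabetic group, and the vehicle groups differed from each other by 0.08 (95% interval -0.20 to 0.36). Since the gene was picked for this contrast, nothing is read from these values beyond their size.

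By Day 42 the groups overlapped. FGF1-treated mice had 21.1, 27.3, 13.7, 25 and 31.5 CPM of Hsd11b1, and vehicle-treated mice had 21.3, 24, 18.2, 25.8 and 22.5 CPM. The lowest and the highest mouse were both FGF1-treated. The log2 FC was 0.08 (95% interval -0.22 to 0.38), and the FGF1 effect differed from that of Day 1 by 0.82 (SE 0.20, edgeR adjusted p = 0.00212), in the direction of a smaller effect on Day 42. Differences between days use the non-diabetic vehicle group of Day 5. The Day 42 effect was 1.22 above that of Day 5, which is given with no test for the reason above. Of all genes, 16.4% differed in effect between Days 1 and 42 past both thresholds, 15.8% between Days 1 and 5, and 0.717% between Days 5 and 42.

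**Figure D1:**
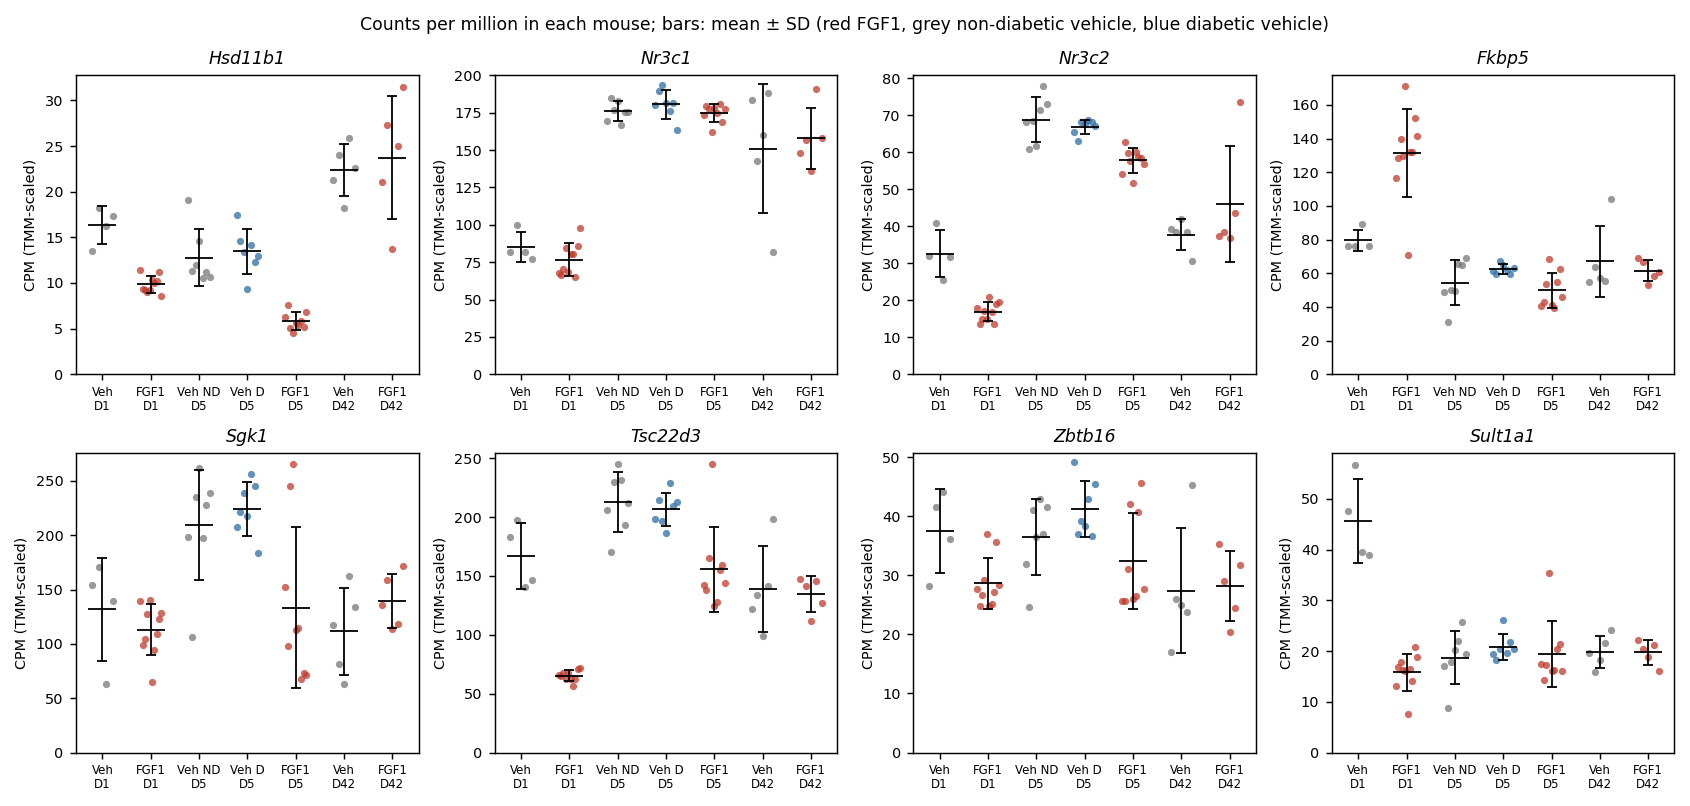
TMM-scaled CPM (linear axis from 0) of the 8 genes in each of 47 mice, by treatment and day, with mean and SD. FGF1-treated mice of Day 1 stand apart from vehicle for Hsd11b1, Nr3c2, Tsc22d3 and Sult1a1, while the groups of Day 42 overlap in all 8 panels.

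Beside Hsd11b1, the enzymes and carriers that set hormone supply were read from a list of 15 genes, of which 7 are in the table. On Day 1, H6pd rose from 6.68 ± 1.34 CPM (SD, n = 4) to 14.3 ± 3.20 CPM (SD, n = 10), a log2 FC of 1.13 (SE 0.13, edgeR adjusted p = 1e-09). Star, whose product moves cholesterol into mitochondria for steroid synthesis, rose from 2.51 ± 0.199 to 6.61 ± 4.35 CPM (log2 FC 1.49, SE 0.26, edgeR adjusted p = 7.84e-06), with a wide spread among FGF1-treated mice. In the same mice the mRNA of Hsd11b1 was thus lower and that of H6pd, which supplies its cofactor, higher. The other 4 genes beside Hsd11b1 were not DEGs, namely the steroid 5-alpha-reductases Srd5a1 and Srd5a3 and the transporters Abcb1a and Abcb1b, which pump steroids out of the brain. None of these 6 genes was a DEG on Day 5 against either vehicle group or on Day 42.

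Hsd11b1 varied between mice of the same group together with markers of other brain regions. Over the 47 libraries, with the group means removed, it correlated with the summed CPM of 6 markers of thalamus and cortex (among them Tcf7l2, Prkcd and Slc17a7) with r = 0.77, and by day with r = 0.30 on Day 1 (14 libraries), 0.71 on Day 5 (23 libraries) and 0.94 on Day 42 (10 libraries). The points share a preparation code within a day, and the value is a description. The marker sum ran from 109 to 955 CPM in FGF1-treated and from 131 to 821 CPM in vehicle-treated mice of Day 42. FGF1 replicate 9, the mouse with the lowest Hsd11b1 that day, had the lowest sum and FGF1 replicate 11, the one with the highest, had the highest. On Day 5 the sum overlapped between the groups, with 76.3 to 259 CPM for FGF1, 119 to 252 CPM for non-diabetic and 98.5 to 345 CPM for diabetic vehicle, and 0 of the 6 markers was a DEG. On Day 1 the ranges were 56.6 to 117 CPM for FGF1 and 57.4 to 81.8 CPM for vehicle, again with 0 DEGs among the 6. The part of such tissue in the levels was not tested, and in bulk tissue fewer cells of a type and less RNA per cell cannot be told apart.

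The 3 genes most like Hsd11b1 across mice, of 14122 compared, were Osbpl1a (r = 0.79), Nrn1 (0.76) and Fam163a (0.76). The summed markers of oligodendrocytes followed with r = 0.54, and those of hypothalamic neurons ran the other way with r = -0.54. On Days 1, 5 and 42 the former was 0.25, 0.72 and 0.85 and the latter -0.06, -0.4 and -0.83. The r of Hsd11b1 with the target genes lay between -0.27 with Sult1a1 and 0.06 with Tsc22d3 and Zbtb16 over all libraries, but differed in sign between groups. Among the FGF1-treated mice of Day 5 it was -0.63 with Fkbp5, -0.53 with Sgk1, -0.61 with Tsc22d3, -0.62 with Zbtb16 and -0.73 with Sult1a1, and among those of Day 42 it was 0.54, 0.79, 0.57, 0.64 and -0.23 in the same order, over 9 and 5 mice.

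**Figure D2:**
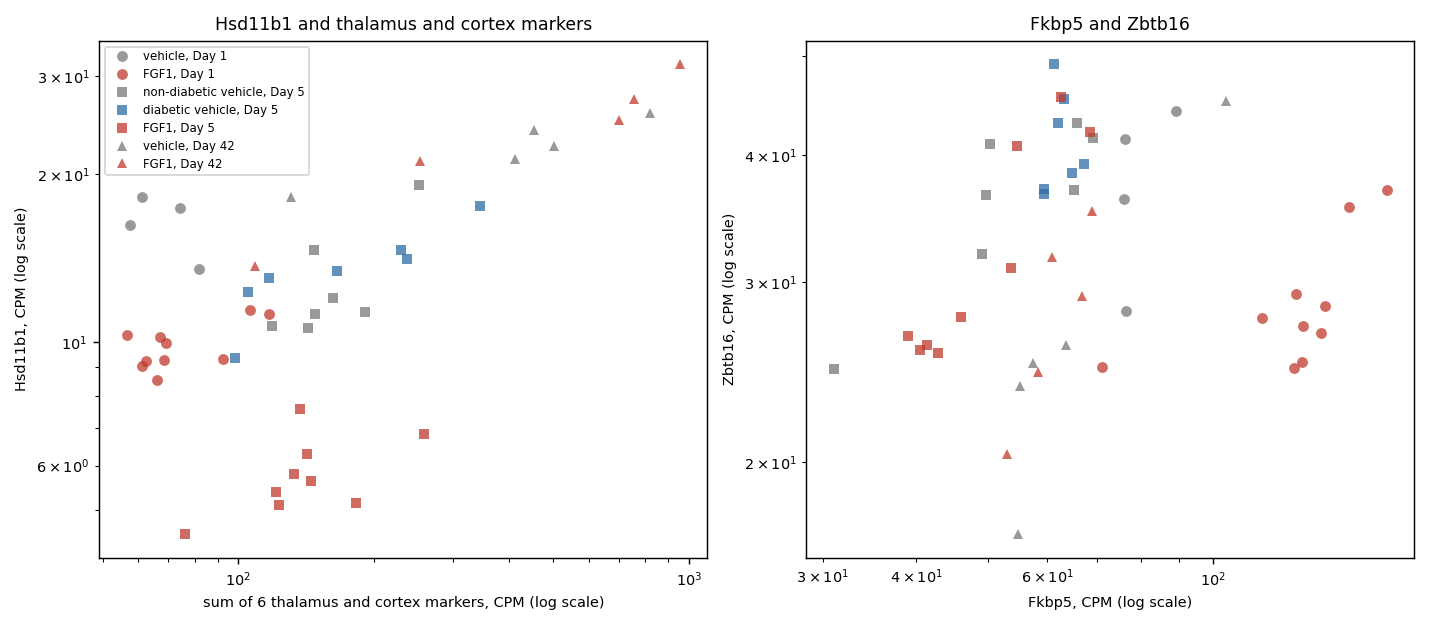
Each point is 1 mouse, on log axes. On the left, Hsd11b1 CPM is plotted against the summed CPM of 6 thalamus and cortex markers, and the mice of Day 42 reach the highest sums, up to 955 CPM. On the right, Zbtb16 and Fkbp5 CPM are plotted against each other, and 9 of the 10 FGF1-treated mice of Day 1 have more Fkbp5 than any vehicle-treated mouse of that day.

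The receptors were considered next. Nr3c1 lies on chromosome 18 (39410545 to 39519421, minus strand) and Nr3c2 on chromosome 8 (76899442 to 77245012, plus strand). An exon of Nr3c2 overlaps 247 bases of Gm10649 on the other strand, a gene that is not in the count table. The library kit was strand-specific, but whether reads were counted by strand is not given in the sources used here, so reads of these bases could belong to either gene.

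Nr3c1 did not pass the thresholds in any comparison. On Day 1 it ran from 64.9 to 97.8 CPM in FGF1-treated mice (median 75.5) and was 81.8, 99.8, 81.9 and 77 CPM in vehicle-treated mice, a log2 FC of -0.14 (95% interval -0.36 to 0.08, edgeR adjusted p = 0.302). On Day 5 the groups lay within a narrow band, from 162 to 181 CPM with FGF1, 167 to 185 CPM with non-diabetic vehicle and 163 to 193 CPM with diabetic vehicle, and the log2 FC was -0.01 (-0.20 to 0.18) and -0.05 (-0.24 to 0.14). On Day 42 it was 0.06 (-0.17 to 0.30), with vehicle replicate 16 at 81.5 CPM and the other 9 mice between 136 and 191 CPM. The intervals of Days 1, 5 and 42 thus leave room for a change of up to 0.36 on the log2 scale in Nr3c1.

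Nr3c2 fell on Day 1. FGF1-treated mice ran from 13.5 to 20.9 CPM (median 17.1), and vehicle-treated mice had 32.1, 40.9, 25.5 and 31.6 CPM, with no overlap. The mean went from 32.5 ± 6.36 (SD, n = 4) to 16.9 ± 2.58 CPM (SD, n = 10), and Nr3c2 fell by 0.95 on the log2 scale (SE 0.12, edgeR adjusted p = 4.22e-09). On Day 5 it ran from 51.7 to 62.8 CPM with FGF1 (median 58.5), from 60.9 to 77.8 CPM with non-diabetic vehicle (median 68.4) and from 63.0 to 68.6 CPM with diabetic vehicle (median 67.6). In the Day 5 comparison with the diabetic group all 9 FGF1-treated mice were below all vehicle-treated mice (exact permutation test, two-sided p = 8.74e-05, the smallest possible), and against the non-diabetic group 8 of 9 were (exact permutation test, p = 0.000437). The size of this difference was small, with a log2 FC of -0.21 (95% interval -0.42 to 0.00, edgeR adjusted p = 0.221) and -0.25 (-0.46 to -0.04, edgeR adjusted p = 0.175), and Nr3c2 was no DEG on Day 5. At about the same fold, limma with sample quality weights gave an adjusted p of 0.000713 and 6.88e-05, and edgeR with Day 5 fitted alone also passed the adjusted p in both comparisons, but not the fold-change threshold. The edgeR fit uses the spread of all days, and the SD of log2 CPM among mice of a group had a median over genes of 0.107 to 0.116 on Day 5 and 0.190 to 0.237 on the other days.

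On Day 42 Nr3c2 was 37.3, 38.4, 36.8, 43.6 and 73.6 CPM with FGF1 and 39.3, 38.6, 41.9, 38.5 and 30.6 CPM with vehicle, a log2 FC of 0.28 (unadjusted p = 0.0332, edgeR adjusted p = 0.854) that includes FGF1 replicate 11 at 73.6 CPM. Without that mouse it was 0.05, and with sample quality weights in limma 0.03. The FGF1 effect on Nr3c2 differed between Day 5 and Day 1 by 0.70 (SE 0.16, edgeR adjusted p = 0.000597) and between Day 42 and Day 1 by 1.23 (SE 0.17, edgeR adjusted p = 3.67e-07). Between Days 42 and 5 the difference was 0.53 (edgeR adjusted p = 0.116). Within groups Nr3c2 was set against the summed choroid plexus markers, of which 6 of 8 are in the table, with r = 0.78 over 47 libraries, which was 0.72 on Day 1, 0.08 on Day 5 and 0.95 on Day 42. That sum was 44.1 to 72.4 CPM in FGF1-treated and 67.1 to 91.0 CPM in vehicle-treated mice of Day 1, where 2 of the 6 markers, Kcnj13 and Clic6, fell, as did 8.05% of all genes. It was 91.9 to 116 CPM and 94.4 to 108 CPM in the FGF1 and non-diabetic groups of Day 5, and its part in the Nr3c2 levels was not tested.

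The log2 ratio of Nr3c1 to Nr3c2 CPM within a mouse was 2.19 ± 0.14 in FGF1-treated (SD, n = 10) and 1.40 ± 0.19 in vehicle-treated mice of Day 1 (SD, n = 4), without overlap (1.92 to 2.32 and 1.28 to 1.69). It was 1.6 ± 0.09 with FGF1 on Day 5 (SD, n = 9), 1.36 ± 0.17 with non-diabetic and 1.43 ± 0.10 with diabetic vehicle (SD, n = 7 each), with ranges that overlap. On Day 42 it was 1.83 ± 0.42 and 1.95 ± 0.35 (SD, n = 5 each). The ratio of counts does not correct for the lengths of the 2 transcripts and serves only to compare mice. Closest to Nr3c1 across mice were Gspt1 (r = 0.91), Spag9 (0.91) and Zfp148 (0.90), which rest on Days 1 and 42, since on Day 5 the r was 0.34, -0.08 and 0.20. Without the shallow FGF1 replicate 17 of Day 1 they ranked 13, 11 and 29, and Arhgap5 ranked 1 (r = 0.94). Closest to Nr3c2 were Tcf4 (r = 0.81), Ppp3ca (0.80) and Dock4 (0.78), with r of 0.34, 0.45 and 0.21 on Day 5.

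**Figure D3:**
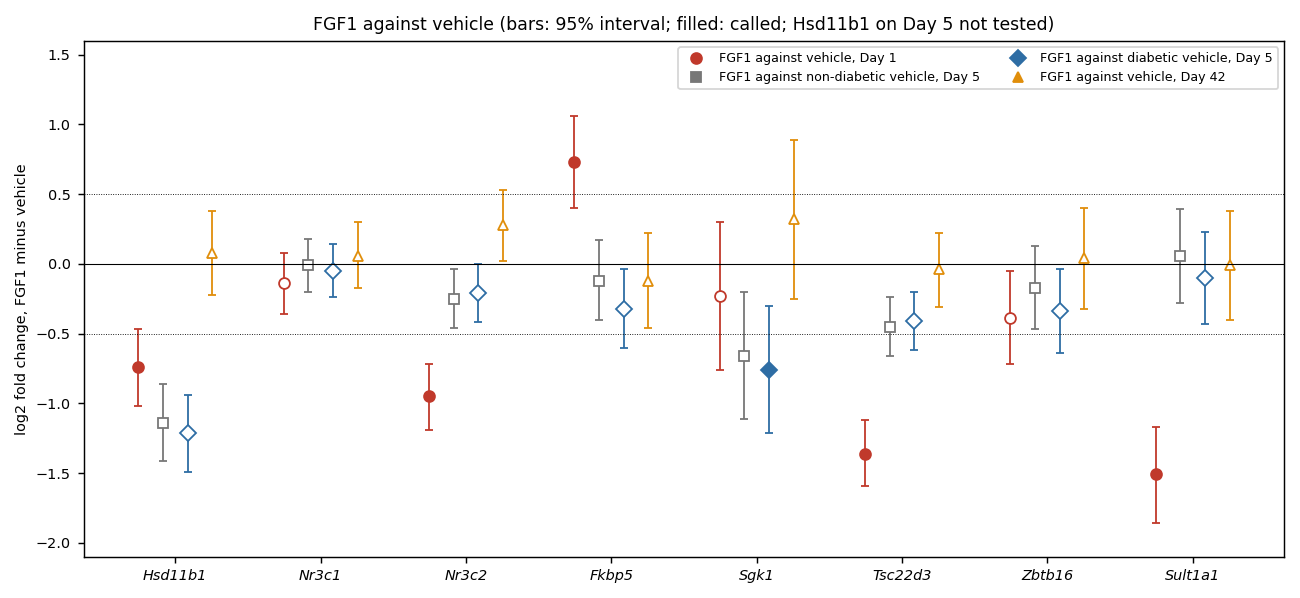
log2 FC of FGF1 over vehicle for the 8 genes in 4 comparisons, with 95% intervals; filled symbols passed both thresholds and dotted lines mark an absolute log2 FC of 0.5. On Day 1 the effects run from -1.51 for Sult1a1 to 0.73 for Fkbp5, and on Day 42 all 8 symbols are open.

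The proteins that hold the receptor in its hormone-binding state and that link it to transcription were read from a list of 20 genes, all in the table. The chromatin remodeller Smarca4 rose by a log2 FC of 0.68 (SE 0.11, edgeR adjusted p = 3.86e-06) on Day 1. The coactivator Ppargc1a fell by 0.91 on the log2 scale (SE 0.12, edgeR adjusted p = 3.82e-08), from 52.1 ± 9.38 (SD, n = 4) to 27.9 ± 5.34 CPM (SD, n = 10). Of the 19 genes beside Fkbp5, 8 passed the adjusted p alone with smaller fold changes, and the median log2 FC of the 19 was 0.11 against 0.01 over all genes. On Days 5 and 42, 0 of the 20 was a DEG.

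To place the target genes, promoter sequences from RefSeq (GRCm38.p6), which reach from 250 bases before to 50 bases after each transcript start, were searched for the half-site AGAACA and its reverse complement TGTTCT, and for the inverted pair of both with any 3 bases between them, as bound by receptor dimers. Promoters were held for 6 of the 8 genes, 13 windows in all. The half-site occurs in 19% of all 32851 promoter windows and in 5 of these 13, and the inverted pair in 3 of all windows, 1 of which is a promoter of Sgk1. This stretch is shown because it holds the full pair, which lies on chromosome 10 at -189 from the transcript start at 21993890, while 5 other Sgk1 starts hold no pair. The 250 bases before that start (chr10:21993640-21993889, plus strand) read as follows, with half-sites in capitals.

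Sgk1: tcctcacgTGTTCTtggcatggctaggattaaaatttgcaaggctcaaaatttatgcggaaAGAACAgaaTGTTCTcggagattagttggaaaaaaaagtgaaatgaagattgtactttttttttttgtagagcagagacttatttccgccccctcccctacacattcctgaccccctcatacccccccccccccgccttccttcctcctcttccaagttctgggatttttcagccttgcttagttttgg

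Single half-sites lie at -212 and -34 of the Sult1a1 start (chr7:126676613-126676642 and chr7:126676435-126676464, minus strand) and at -185 of 1 of 3 Tsc22d3 starts (chrX:140600690-140600719, minus strand). They are shown in the same way, with 12 bases on either side, because these are the target genes that fell most on Day 1.

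Sult1a1, distal: gaaaagtcccatTGTTCTaccttaagttta
Sult1a1, proximal: ttttgtttctggAGAACAgccagtcctagc
Tsc22d3: ccgcattcgacaTGTTCTaagttctgagac

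The windows of Fkbp5, Hsd11b1 and Nr3c2 hold neither form. A match to these letters is a description of the sequence and not a binding site, and receptor sites of such genes are often far from the start.

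The 5 target genes did not move as one on Day 1. Fkbp5 rose, Tsc22d3 and Sult1a1 fell, and Sgk1 and Zbtb16 were not DEGs. Over all 8 genes, 4 fell and 1 rose, where 8.05% of all genes fell and 11.5% rose, and 4 of 8 did not overlap between the groups, where 14.4% of all genes did not.

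Fkbp5 lies on chromosome 17 (28399094 to 28517527, minus strand). On Day 1 it ran from 70.9 to 171 CPM in FGF1-treated mice (median 132) and was 76.5, 76.2, 89.1 and 76.1 CPM in vehicle-treated mice. Of the FGF1-treated mice 9 were above every vehicle-treated mouse and 1, replicate 22, was below them all. The log2 FC was 0.73 (SE 0.16, edgeR adjusted p = 0.000297; exact permutation test, p = 0.005). On Day 5 the groups overlapped, with 39.1 to 68.5 CPM for FGF1 (median 46.0), 31.0 to 69.1 CPM for non-diabetic vehicle (median 50.2) and 59.3 to 67.1 CPM for diabetic vehicle (median 62.0). The log2 FC was -0.12 (95% interval -0.40 to 0.17) and -0.32 (-0.60 to -0.04, edgeR adjusted p = 0.158), and against the diabetic group 7 of 9 FGF1-treated mice were below all vehicle-treated mice and 1 above all (exact permutation test, p = 0.0108). On Day 42 it was -0.12 (-0.46 to 0.22), with 53.0 to 68.9 CPM for FGF1 and 54.8, 63.5, 57.4, 55.2 and 104 CPM for vehicle. The effect of Day 1 exceeded that of Day 5 by 0.84 on the log2 scale (difference of Day 5 minus Day 1 of -0.84, SE 0.21, edgeR adjusted p = 0.00235) and that of Day 42 similarly (-0.85, SE 0.23, edgeR adjusted p = 0.00534). With sample quality weights in limma the latter was -0.61 (adjusted p = 0.128).

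Tsc22d3, also known as GILZ, encodes an anti-inflammatory leucine zipper protein on chromosome X (140539528 to 140600659, minus strand). On Day 1 the FGF1-treated mice had 56.6 to 71.6 CPM (median 65.4) and the vehicle-treated mice 183, 198, 140 and 147 CPM, with about the same level in all 10 FGF1-treated mice and no overlap. It fell by 1.36 on the log2 scale (SE 0.12, edgeR adjusted p = 3.8e-13), or by 61.0%, with the smallest adjusted p of the 8 genes. On Day 5 it ran from 124 to 245 CPM with FGF1 (median 144), 170 to 245 CPM with non-diabetic vehicle (median 212) and 186 to 229 CPM with diabetic vehicle (median 209). Of the FGF1-treated mice 8 of 9 were below every mouse of either vehicle group and replicate 4 was at 245 CPM. The log2 FC was -0.45 (SE 0.11, edgeR adjusted p = 0.00522; exact permutation test, p = 0.00402) and -0.41 (SE 0.11, edgeR adjusted p = 0.00794; exact permutation test, p = 0.0035), which passed the adjusted p but not the fold-change threshold. Without FGF1 replicate 4 of Day 5, a setting chosen after seeing the data, both passed with -0.56 and -0.52. With sample quality weights in limma and all mice, the value against the non-diabetic group passed as well (-0.51, limma adjusted p = 2.11e-07). On Day 42 it was -0.04 (95% interval -0.31 to 0.22), with 147, 142, 112, 146 and 127 CPM for FGF1 and 122, 134, 99.4, 141 and 198 CPM for vehicle. The effect on Day 5 was smaller than on Day 1 by 0.91 (SE 0.16, edgeR adjusted p = 2.33e-05) and that on Day 42 by 1.31 (SE 0.18, edgeR adjusted p = 1.95e-07).

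Sult1a1, a sulfotransferase of phenols, lies on chromosome 7 (126672865 to 126676432, minus strand), and 61 bases of its exons overlap Sgf29 on the other strand, which is in the count table. On Day 1 it ran from 7.55 to 20.7 CPM in FGF1-treated mice (median 16.4) and was 47.6, 56.6, 39.5 and 38.8 CPM in vehicle-treated mice, again without overlap. The fall was 1.51 on the log2 scale (SE 0.17, edgeR adjusted p = 7.2e-10), from 45.6 ± 8.31 (SD, n = 4) to 15.8 ± 3.63 CPM (SD, n = 10). The groups of Day 5 overlapped, with 14.2 to 35.5 CPM for FGF1 (median 17.2), 8.78 to 25.7 CPM for non-diabetic vehicle (median 19.4) and 18.3 to 26.2 CPM for diabetic vehicle (median 20.3), a log2 FC of 0.06 (95% interval -0.28 to 0.39) and -0.10 (-0.43 to 0.23). Against the diabetic group 6 of 9 FGF1-treated mice were below all vehicle-treated mice and 1, replicate 4, above all (exact permutation test, p = 0.391). On Day 42 it was -0.01 (-0.40 to 0.38), with 16 to 22.2 CPM for FGF1 and 15.8 to 24.1 CPM for vehicle. The FGF1 effect differed from Day 1 by 1.57 on Day 5 (SE 0.24, edgeR adjusted p = 1.97e-06) and by 1.5 on Day 42 (SE 0.26, edgeR adjusted p = 2.16e-05).

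Sgk1, a kinase of ion transport and cell survival, lies on chromosome 10 (21882184 to 21999903, plus strand). On Day 1 it ran from 65.0 to 140 CPM with FGF1 (median 116) and was 154, 171, 63.1 and 140 CPM with vehicle, a log2 FC of -0.23 (95% interval -0.76 to 0.30, edgeR adjusted p = 0.492). On Day 5 the FGF1-treated mice were widely spread, from 68.0 to 266 CPM (median 113), against 106 to 262 CPM for non-diabetic vehicle (median 228) and 183 to 256 CPM for diabetic vehicle (median 221). Replicates 3 and 4, at 245 and 266 CPM, reached the vehicle groups, and the other 7 FGF1-treated mice were below every diabetic vehicle-treated mouse, while 4 of 9 were below every non-diabetic one. Sgk1 fell by 0.76 on the log2 scale against the diabetic group (SE 0.23, edgeR adjusted p = 0.0248; exact permutation test, p = 0.00865), while against the non-diabetic group the log2 FC was -0.66 (SE 0.23, edgeR adjusted p = 0.0894; exact permutation test, p = 0.0288). The 2 deepest libraries of that day, FGF1 replicates 8 and 9, were among the 3 lowest with 73.1 and 71.8 CPM, and without them the values were -0.57 (edgeR adjusted p = 0.132) and -0.47 (edgeR adjusted p = 0.336). Without non-diabetic vehicle replicate 2, which had 106 CPM, the latter was -0.77 (edgeR adjusted p = 0.0359), and without FGF1 replicate 4 it was -0.85 (edgeR adjusted p = 0.0133). Both settings were chosen after seeing the data and leave out the lowest non-diabetic vehicle-treated or the highest FGF1-treated mouse. Such a choice pushes the value towards passing, so no conclusion is drawn from it. On Day 42 the log2 FC was 0.32 (-0.25 to 0.89), with 136, 159, 114, 118 and 171 CPM for FGF1 and 117, 81.1, 62.7, 163 and 134 CPM for vehicle, and no difference in effect between days passed.

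Zbtb16, a zinc finger repressor also called PLZF, lies on chromosome 9 (48654297 to 48836222, minus strand). On Day 1 it ran from 24.7 to 36.9 CPM with FGF1 (median 27.4) and was 28.1, 41.5, 44.2 and 36.2 CPM with vehicle, with 6 of 10 FGF1-treated mice below all vehicle-treated mice. The log2 FC of -0.39 (SE 0.17, edgeR adjusted p = 0.0527; exact permutation test, p = 0.014) missed both thresholds, and without vehicle replicate 27, the lowest, it was -0.50 (edgeR adjusted p = 0.0214). On Day 5 Zbtb16 was at 25.6 to 45.6 CPM (median 27.7), 24.7 to 43.0 CPM (median 36.9) and 36.6 to 49.1 CPM (median 39.2) in the FGF1, non-diabetic and diabetic groups, a log2 FC of -0.17 (95% interval -0.47 to 0.13) and -0.34 (-0.64 to -0.04, edgeR adjusted p = 0.151). Against the diabetic group 6 of 9 FGF1-treated mice were below all vehicle-treated mice (exact permutation test, p = 0.0214). On Day 42 it was 0.04 (-0.32 to 0.40).

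For the 7 genes other than Hsd11b1, then, 1 fell on Day 5 against the diabetic vehicle group, where 0.499% of all genes fell and 2.36% rose, and 0 changed against the non-diabetic group, where 0.232% fell and 1.31% rose. Groups that did not overlap were seen for Nr3c2 in the first comparison, where 6.08% of all genes did not overlap, and for none of the 7 in the second, where 3.93% did not. The vehicle groups of Day 5 did not differ in any of these 7 genes past the thresholds, with log2 differences of -0.04 to 0.20, and 0% of all genes were DEGs there (193 genes at an unadjusted p under 0.05, edgeR, with a smallest adjusted p of 0.787). On Day 42, 0% of all genes were DEGs (776 at an unadjusted p under 0.05, edgeR), 0.267% of genes did not overlap, and 0 of the 8 genes was among either. Hsd11b1 was left out of the Day 5 counts because those values chose it.

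More glucocorticoid-induced genes were read from a list of 41, of which 39 are in the table, 34 of them beside the 5 above. On Day 1, 11 of the 34 rose, 9 fell and 14 were not DEGs, where 11.5% of all genes rose and 8.05% fell, with a median log2 FC of -0.01 against 0.01 over all genes. Among those that rose, Cebpd, a transcription factor of acute inflammation, went from 1.04 ± 0.725 to 4.50 ± 1.29 CPM (log2 FC 2.18, SE 0.35, edgeR adjusted p = 1.22e-06) and the kinase Map3k6 from 6.35 ± 0.904 to 28.3 ± 9.32 CPM (log2 FC 2.15, SE 0.33, edgeR adjusted p = 5.21e-07). The metallothioneins Mt2 and Mt1, which bind zinc and copper, rose by 1.81 and 1.47. Among those that fell, Glul, the glutamine synthetase of astrocytes, went from 1710 ± 177 to 624 ± 77.8 CPM (log2 FC -1.46, SE 0.08, edgeR adjusted p = 1.27e-19), and Gjb6, a gap junction protein of astrocytes, from 148 ± 21 to 53.8 ± 8.52 CPM (log2 FC -1.46, SE 0.09, edgeR adjusted p = 1.16e-17).

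**Figure D4:**
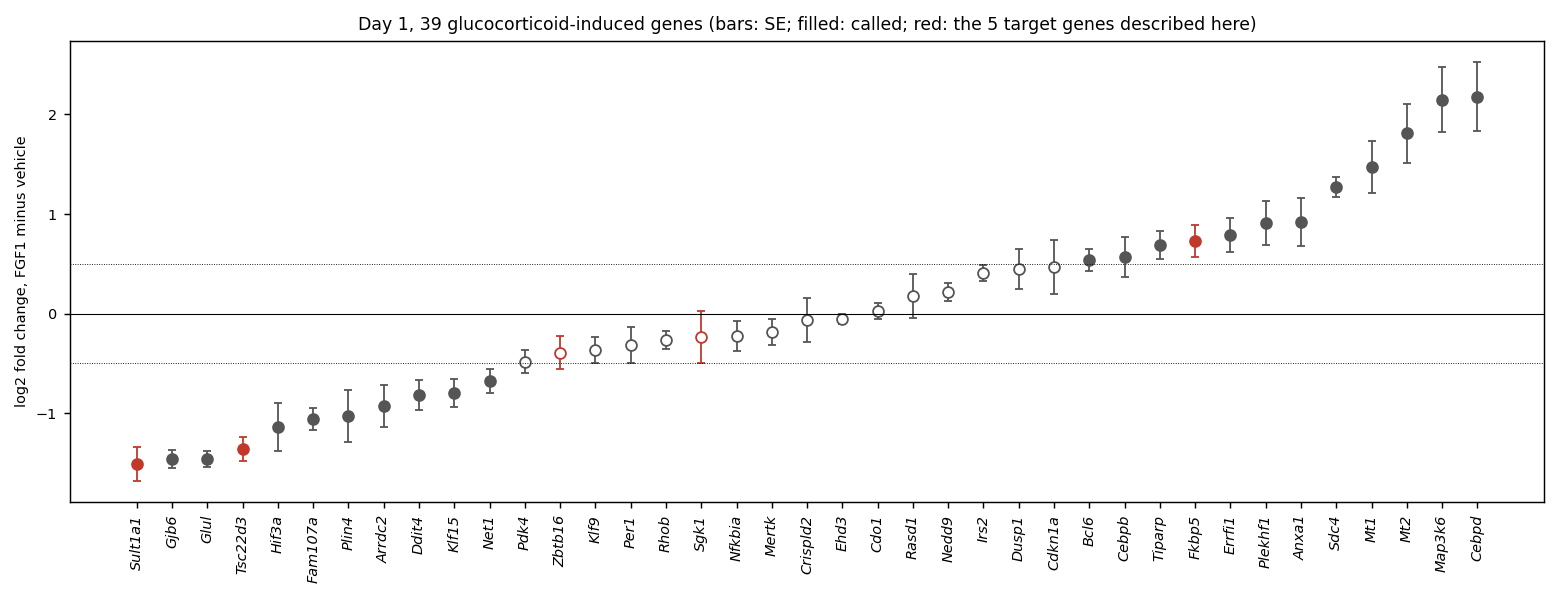
log2 FC with SE of 39 glucocorticoid-induced genes on Day 1, in order of size; filled symbols passed both thresholds and red marks the 5 target genes. Values run from -1.51 for Sult1a1 to 2.18 for Cebpd, with 12 DEGs higher and 11 lower.

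On Day 5 fewer genes of the list were DEGs, and those in the fit of all libraries were lower. With sample quality weights in limma, 2 of the 39 were higher and 5 lower against the non-diabetic group, and in edgeR 3 were lower without non-diabetic vehicle replicate 2 and 4 without FGF1 replicate 4. Both of these edgeR settings were chosen after seeing the data. Against the non-diabetic group, where 0.232% of all genes fell, 1 of 34 did, Arrdc2, an arrestin-like gene, from 25.2 ± 5.01 (SD, n = 7) to 14.5 ± 4.58 CPM (SD, n = 9), with a log2 FC of -0.80 (SE 0.20, edgeR adjusted p = 0.00893). Against the diabetic group, where 0.499% of all genes fell, 3 of 34 did, Arrdc2 with a log2 FC of -0.98 (edgeR adjusted p = 0.000544), the lipid droplet gene Plin4 with -0.91 (edgeR adjusted p = 0.00758) and the clock gene Per1 with -0.66 (edgeR adjusted p = 0.0075). The median log2 FC of the 34 was -0.12 and -0.11 in the 2 comparisons, and -0.01 over all genes. On Day 42 the median was -0.04 and 0 were DEGs.

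Of 14 peptides and receptors of the hypothalamic-pituitary-adrenal axis, 10 are in the table. On Day 1 the value for Crh, the peptide that starts the axis, was 0.49 (SE 0.31, edgeR adjusted p = 0.195), and Avp, which acts with it, -0.45 (SE 0.36, edgeR adjusted p = 0.324). Of the 10, 2 rose on Day 1, where 11.5% of all genes rose, namely Pomc (1.71, edgeR adjusted p = 0.00293) and the vasopressin receptor Avpr1a (0.67, edgeR adjusted p = 0.00167). Pomc is also on the list of hypothalamic neuron markers. None of the 10 was a DEG on Day 5 in either comparison or on Day 42 in the fit of all libraries, while against the diabetic group 1 was lower with sample quality weights in limma and 1 with Day 5 fitted alone. Crh and Avp were named here after their values were seen.

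The last question was how the 8 genes vary together between mice of the same group. Fkbp5 moved with Zbtb16 (r = 0.77) and with Sult1a1 (r = 0.77), over 47 libraries with the group means removed. Fkbp5 was the gene most like each of them of all 14122 compared, although on Day 1 the mean effects on Fkbp5 and Sult1a1 were opposite in sign. Within single groups of 4 to 10 mice, the r of Fkbp5 with Sult1a1 ran from -0.49 in vehicle-treated mice of Day 1 to 0.91 in non-diabetic vehicle-treated mice of Day 5, with 0.90 and 0.83 in the FGF1-treated mice of Days 1 and 5, and that with Zbtb16 ran from 0.08 to 0.93. Replicate 22 of Day 1 was the lowest of the 10 FGF1-treated mice for Fkbp5 (70.9 CPM), Sgk1 (65.0 CPM) and Sult1a1 (7.55 CPM), and the second lowest for Tsc22d3 (62.2 CPM) and Zbtb16 (24.8 CPM).

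Other single mice stood out in several target genes at once. On Day 5, FGF1 replicate 4 was the highest of its group for Fkbp5 (68.5 CPM), Sgk1 (266 CPM), Tsc22d3 (245 CPM) and Sult1a1 (35.5 CPM), and it was the lowest for Hsd11b1 (4.52 CPM). Non-diabetic vehicle replicate 2 was the lowest of its group for all 5 target genes, with Fkbp5 at 31.0, Sgk1 at 106, Tsc22d3 at 170, Zbtb16 at 24.7 and Sult1a1 at 8.78 CPM. Vehicle replicate 16 of Day 42 was the highest of its group for Fkbp5 (104 CPM), Tsc22d3 (198 CPM), Zbtb16 (45.2 CPM) and Sult1a1 (24.1 CPM), and the lowest for Nr3c1 (81.5 CPM) and Nr3c2 (30.6 CPM). No hormone level or time of death per mouse was used here, so what these mice share was not tested.

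For Sgk1 the r was 0.59 with Tsc22d3 and 0.52 with Sult1a1, and 0.36 with Fkbp5 and 0.16 with Zbtb16, and the genes most like it were Arl4d (r = 0.85), Nfkbia (0.77) and F3 (0.73). FGF1 replicates 7 and 8 of Day 5 had Sgk1 among the lowest of the 9 mice (68.0 and 73.1 CPM) and Zbtb16 among the highest (40.8 and 45.6 CPM). Tsc22d3 was most like Arrdc2 (r = 0.74), Hif3a (0.70) and Slc25a33 (0.69), and Fkbp5 was most like Cdkn1a (0.81), Hif3a (0.81) and Plin4 (0.80). After Fkbp5, Zbtb16 was closest to Plin4 (0.76) and Aff1 (0.71), and Sult1a1 to Hif3a (0.75) and Rhoj (0.69). Of these, Cdkn1a, Hif3a, Plin4, Arrdc2 and Nfkbia are on the list of glucocorticoid-induced genes. Over all libraries the r of Nr3c1 with the 5 targets ran from -0.41 for Fkbp5 and Zbtb16 to -0.03 for Sgk1, and that of Nr3c2 from -0.14 for Fkbp5 to 0.15 for Sgk1, but signs differed between days. For Nr3c2 with Fkbp5 it was -0.45 on Day 1, 0.58 on Day 5 and -0.35 on Day 42, and for Nr3c1 with Tsc22d3 it was 0.37, -0.47 and -0.56.

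**Figure D5:**
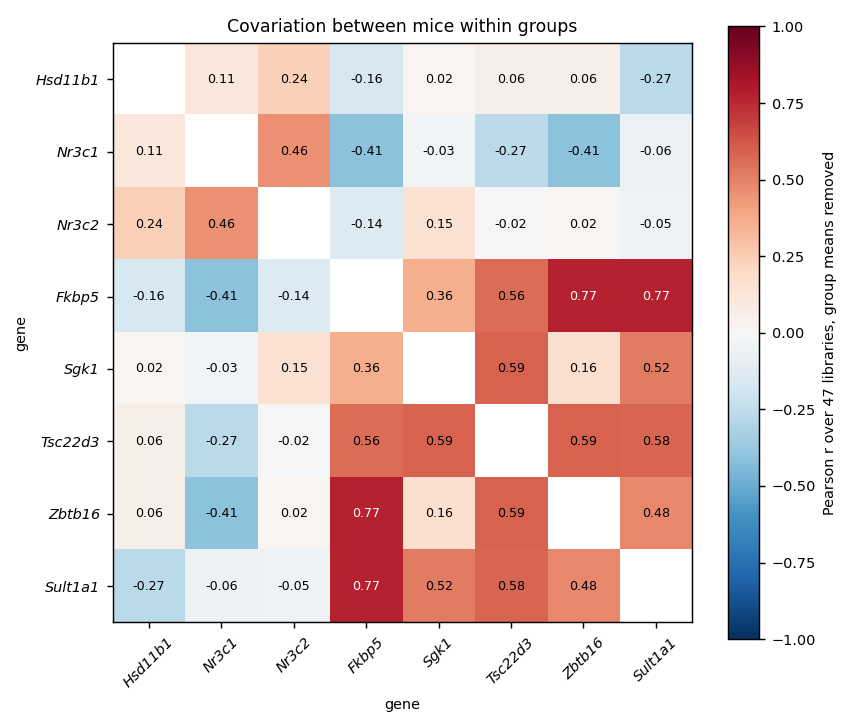
Pearson r between the 8 genes over 47 libraries, on log2(CPM + 0.5) with the group means removed. The highest values, 0.77, join Fkbp5 to Zbtb16 and to Sult1a1, and Hsd11b1 lies between -0.27 and 0.24 with the 7 other genes.

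Markers of other cell types also moved with FGF1, and their values are set beside the results above. Of all genes, 11.5% rose and 8.05% fell on Day 1. On Day 5, 1.31% rose and 0.232% fell against the non-diabetic group, and 2.36% rose and 0.499% fell against the diabetic group. On Day 1, 6 of 9 oligodendrocyte markers fell (summed CPM 2330 to 4200 with FGF1 and 3720 to 5380 with vehicle), 4 of the 8 tanycyte and ependymal markers in the table fell (80.7 to 117 and 132 to 179 CPM), and 7 of 8 microglia and macrophage markers rose (149 to 224 and 121 to 145 CPM). Of 9 astrocyte markers 2 rose, Gfap and Sox9, and 3 fell, Gjb6, Gja1 and S100b. The 12 meningeal markers were split, with 3 higher and 5 lower (80.7 to 501 and 170 to 331 CPM), and of 9 endothelial and mural markers 3 rose and 1 fell. Of 14 hypothalamic neuron markers 2 rose and 3 fell (984 to 1440 and 1390 to 1850 CPM). On Day 5 against the non-diabetic group, 3 of 9 oligodendrocyte markers rose (6260 to 7170 and 4580 to 6030 CPM), as did 2 of 9 astrocyte (4310 to 4810 and 3720 to 3860 CPM) and 4 of 12 meningeal markers (110 to 449 and 62.9 to 235 CPM), and 0 of the neuron, tanycyte and ependymal, endothelial and mural, or choroid plexus markers changed. Against the diabetic group, 3 of 9 oligodendrocyte, 2 of 9 astrocyte and 1 of 12 meningeal markers rose. Of 8 microglia and macrophage markers 0 rose against the non-diabetic and 6 against the diabetic group (239 to 293 CPM with FGF1, 180 to 297 and 163 to 190 CPM with vehicle). Pituitary markers, 2 of 8 in the table, were no DEGs. On Day 42, 0 markers of any list were DEGs. The part of these cell types in the levels of the 8 genes was not tested.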

How the data were processed

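Bulk mRNA libraries, 1 per mouse from 47 hypothalami, were aligned by the authors with STAR, and the deposited table holds whole-number counts per gene, not normalized. The counting program and its strand setting are not given in the sources used here. The build, written as human in the study's notes, was taken as GRCm38, and gene positions were taken from GENCODE, where 14183 of 14221 genes matched by symbol. From these counts, edgeR 4.0.16 (R 4.3.3) fitted 1 mean for each of 7 groups after TMM scaling. Its filter on low counts removed 0 genes, and every gene has at least 307 counts in all. Adjusted p-values are Benjamini-Hochberg over all genes. For single genes, exact permutation tests (two-sided) were run on values of log2(CPM + 0.5). P-values measure the spread between mice, and total counts of 1.24 M to 47.1 M set the precision of the rarer genes.

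The 8 genes and all lists were chosen with earlier results of these data known, so counts over them are descriptions. Named are the 8 genes in every comparison, up to 4 DEGs per list, direction and comparison with the largest change (mean of at least 1 CPM in 1 group), and the 3 genes most like each of the 8. Each result was recomputed with DESeq2 1.42.0, with DESeq2 size factors in the edgeR fit, with no filter or at least 10 counts in every library, limma 3.58.1 with sample quality weights, no fold-change threshold, merged vehicle groups of Day 5, each day fitted alone, and left-out libraries. The programs were tested on simulated data. The deposited sample table, which holds preparation codes and no expression, was used for those codes only. Some items of the lists are not reported here by name.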

Additional observations from a re-analysis of the deposited data

Results flagged for a closer look

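In 6 of 56 combinations of gene and group, 1 mouse lay far from the rest by Dixon's ratio, the gap to the nearest mouse divided by the whole range, where chance gives about 1 in 20. That share holds for independent, normally distributed values. The combinations share mice and the genes vary together, so it is only a rough guide here. The ratio was 0.814 for Nr3c2 in FGF1 replicate 11 of Day 42 (73.6 CPM, next 43.6), 0.971 for Fkbp5 in vehicle replicate 29 of Day 1 (89.1 CPM, next 76.5) and 0.824 for Fkbp5 in vehicle replicate 16 of Day 42 (104 CPM, next 63.5). It was 0.590 for Sgk1 in non-diabetic vehicle replicate 2 of Day 5 (106 CPM, next 198). For FGF1 replicate 4 of Day 5 it was 0.661 for Tsc22d3 (245 CPM, next 165) and 0.659 for Sult1a1 (35.5 CPM, next 21.5).

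The FGF1 effect differed between days, by a test of the difference in edgeR past both thresholds, for 5 of the 8 genes. The 5 are genes that passed against Day 1 on Day 5, on Day 42 or on both. The same tests called 15.8% of all genes between Days 1 and 5 and 16.4% between Days 1 and 42. For Hsd11b1 the difference between Days 1 and 5 was not tested. Relative to Day 1, the Day 5 effect (against non-diabetic vehicle) differed on the log2 scale by 0.70 for Nr3c2 (adjusted p = 0.000597), -0.84 for Fkbp5 (adjusted p = 0.00235), 0.91 for Tsc22d3 (adjusted p = 2.33e-05) and 1.57 for Sult1a1 (adjusted p = 1.97e-06). The Day 42 effect differed by 0.82 for Hsd11b1 (adjusted p = 0.00212), 1.23 for Nr3c2 (adjusted p = 3.67e-07), -0.85 for Fkbp5 (adjusted p = 0.00534), 1.31 for Tsc22d3 (adjusted p = 1.95e-07) and 1.5 for Sult1a1 (adjusted p = 2.16e-05). Day and preparation cannot be told apart in these differences.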

How the results depend on the processing

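Of 231 recomputed values of the genes called in a comparison, 229 kept their direction and passed again. The exceptions were Fkbp5 between Days 42 and 1 with sample quality weights (-0.61) and Sgk1 against the diabetic group with the 2 deepest FGF1 libraries left out (-0.57), and the cause was not tested. Of 641 values of genes not called or, for Hsd11b1 on Day 5, not tested, 12 passed, among them Sgk1 against the non-diabetic group of Day 5 in 5 of 11 alternatives (-0.88 to -0.66, adjusted p of 0.000197 to 0.0407), while over all 11 the adjusted p reached 0.336. The 5 include the settings without non-diabetic vehicle replicate 2 and without FGF1 replicate 4, which were chosen after seeing the data.

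Counts of DEGs moved by over 1.5 times in these cases and in some further counts of the gene lists that rest on few genes. With at least 10 counts in every library, which left fewer genes (10973), they were 1582 on Day 1, 140 and 219 on Day 5 against the non-diabetic and diabetic groups, 1402 between Days 5 and 1 and 1525 between Days 42 and 1. Without the fold-change threshold they were 6396, 661, 1310, 3784 and 3623 in the same order. The non-diabetic count of Day 5 (219) was 438 with sample quality weights, 372 with both vehicle groups merged and 370 with Day 5 fitted alone. Leaving out mice of Day 42 in turn gave 0 to 31 DEGs on Day 42 (31 without FGF1 replicate 7, 1 without FGF1 replicate 8) and 56 to 149 between Days 42 and 5, where all mice gave 102 (56 without FGF1 replicate 11). Among the 39 glucocorticoid-induced genes, the 1 lower against the non-diabetic group became 3 to 5 in 6 alternatives, and the 4 lower against the diabetic group became 8 without the fold-change threshold. The 6 include the settings without non-diabetic vehicle replicate 2 and without FGF1 replicate 4, chosen after seeing the data. The 0 higher against the non-diabetic group became up to 2. On Day 1, the receptor chaperones and coregulators went from 3 to 9 higher and from 1 to 3 lower without the fold-change threshold.

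The sign turned 41 times, always for genes that were not DEGs. With DESeq2 and with its size factors these were Sult1a1 on Day 42 (0.00 in both) and Fkbp5 between Days 42 and 5 (0.01 in both), and with at least 10 counts in every library Nr3c1 on Day 5 against the non-diabetic group (0.01). With sample quality weights the Day 42 values were 0.00 for Hsd11b1, -0.12 for Nr3c1, 0.15 for Fkbp5, 0.14 for Tsc22d3 and 0.09 for Sult1a1, and those between Days 42 and 5 were -0.11 for Nr3c1, 0.28 for Fkbp5 and 0.07 for Sult1a1. With merged vehicle groups they were -0.02 for Sult1a1 on Day 5, and 0.10 for Fkbp5 and 0.01 for Sult1a1 between Days 42 and 5. Leaving out each mouse of Day 42 in turn gave ranges that cross 0 on Day 42, of -0.04 to 0.23 for Hsd11b1, -0.09 to 0.16 for Nr3c1, -0.19 to 0.09 for Fkbp5, -0.14 to 0.12 for Tsc22d3, -0.09 to 0.30 for Zbtb16 and -0.08 to 0.07 for Sult1a1, and between Days 42 and 5, of -0.08 to 0.17 for Nr3c1, -0.07 to 0.21 for Fkbp5 and -0.14 to 0.01 for Sult1a1. On Day 5, settings chosen after seeing the data gave 0.00 for Nr3c1 and -0.10 to -0.06 for Sult1a1 against the non-diabetic group (without FGF1 replicate 4 or non-diabetic vehicle replicate 2), and -0.01 for Sgk1 between the vehicle groups (without the latter).

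No paired analysis was possible because the compared groups share no replicate numbers in the labels (the numbers of Day 5 follow sample order and only name mice). The covariation of the 5 targets (median r 0.57) was 0.505 with Spearman's rho and 0.58 without FGF1 replicate 17 of Day 1, and other pseudocounts left 14 of 37 exact tests under 0.05. Low depth limits Hsd11b1 and Sult1a1 in replicate 17, which also decided the genes most like Nr3c1.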
